A study of Mus musculus with 8 samples.

Results

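The genes for the proteins of the cytosolic ribosome were described here in regulatory T cells (Treg), the CD4 T cells that restrain immune responses. Members were protein-coding genes whose RefSeq symbol on the mouse build mm10 begins with Rpl or Rps followed by a digit, together with Rplp0, Rplp1, Rplp2 and Rpsa. S6 kinase genes (Rps6k) and symbols ending in -ps or l were left out. This gave 83 of 21887 protein-coding genes. Of these, 77 encode the standard proteins of the ribosome, 46 of the large subunit and 31 of the small subunit. The other 6 fit the letters of the rule only: the paralogues Rpl22l1 and Rpl7l1, the Rps19-binding protein gene Rps19bp1 and the retrocopies Rpl37rt, Rps23rg1 and Rps27rt.

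All 8 libraries of the series came from C57BL/6 mice, 8 to 12 weeks of age. CUT&RUN, which releases antibody-bound chromatin with a nuclease, was used to map H3K9me2, the dimethylated form of a histone H3 lysine that is typical of silent genes. Its 6 libraries were tumour Treg, 3 with the genotype JMJD1CWT (WT below) and 3 with JMJD1CTregcKO (cKO below), a deletion limited to Treg of Jmjd1c, whose protein belongs to the H3K9 demethylases. ATAC-seq, which tags accessible DNA with a transposase, was run on 1 library of tumour Treg and 1 of spleen Treg, both JMJD1CWT. The promoter that drives the deletion in cKO mice and the kind of tumour are not given in the sources used here, and peak lists cannot show whether Jmjd1c was deleted.

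A ribosome is built from ribosomal RNA and one copy of most ribosomal proteins, so the genes of these proteins are transcribed strongly and together in growing cells, including activated T cells. Their mRNAs begin with a tract of pyrimidines, the terminal oligopyrimidine (TOP) motif, through which mTORC1 and the RNA-binding protein LARP1 tie their translation to nutrients and growth signals. Their promoters are compact, mostly rich in CpG and often hold binding sites of ETS factors such as GABP.

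Promoter sequences of the members that lead the ATAC results are shown first, because the start of the mRNA and the motifs lie close together in them. Each runs from 80 bases before the start listed by RefSeq (GRCm38.p6) into the first 20 transcribed bases and is written 5′ to 3′ on the gene's strand. Capitals mark the ETS core CCGGAAG, the SP1 box GGGCGG, the E-box CACGTG and the YY1 site AAGATGGC on either strand, and a run of at least 8 pyrimidines that touches the 10 bases on either side of the start. The windows are Rpl41 (chr10:128549149-128549248, minus strand), Rpl37 (chr15:5116533-5116632, plus strand), Rpl15 (chr14:18270967-18271066, minus strand) and Rpl13a (chr7:45128726-45128825, minus strand), 4 of the 10 members with the highest tumour ATAC score, and Rpl35 (chr2:39005112-39005211, minus strand), shown for its long pyrimidine run.
Rpl41: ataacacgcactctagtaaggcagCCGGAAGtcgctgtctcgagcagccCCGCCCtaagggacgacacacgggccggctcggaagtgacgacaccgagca
Rpl37: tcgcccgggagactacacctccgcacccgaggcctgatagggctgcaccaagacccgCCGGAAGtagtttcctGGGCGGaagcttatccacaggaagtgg
Rpl15: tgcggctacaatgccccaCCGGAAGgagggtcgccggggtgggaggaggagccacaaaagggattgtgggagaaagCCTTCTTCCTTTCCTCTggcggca
Rpl13a: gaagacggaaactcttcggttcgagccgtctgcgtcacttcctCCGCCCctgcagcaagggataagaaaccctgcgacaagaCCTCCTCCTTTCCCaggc
Rpl35: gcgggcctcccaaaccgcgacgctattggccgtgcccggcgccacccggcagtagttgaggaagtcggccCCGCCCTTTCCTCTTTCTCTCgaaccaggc

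Sequence features of this kind were common among the members. A promoter window of 300 bases, from 250 before to 50 after the start, was listed for 63 of the 83 members and for 17492 protein-coding genes. The ETS core was in 24 of 63 members (38.1%), in 12.9% of all genes and in 21.9% of the 8198 other genes with a tumour ATAC peak at a gene end. A pyrimidine run at the start was in 29 members (46.0%), against 15.8% of all genes and 15.9% of the other open genes. The YY1 site was in 6 members (9.52%, against 3.57% and 5.66%). The SP1 box was in 38 members (60.3%), above the 49.2% of all genes and below the 69.5% of other open genes. The E-box, the site of Myc and Max, was in 6 members (9.52%, against 8.91% and 12.0%), and the TATA box TATAAA in 7 (11.1%, against 14.8% and 8.12%). All motifs but the pyrimidine run were searched on both strands, and an ETS core and an SP1 box may overlap other matches. Of the 57 standard members with a window, 29 held an ETS core or a YY1 site and 5 held none of the 6 features. The median GC content was 57% in members and 61% in other open genes, and the CpG observed over expected was 0.870 and 0.769. A match describes the letters and not binding, and no test was made over genes.

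**Figure D1:**
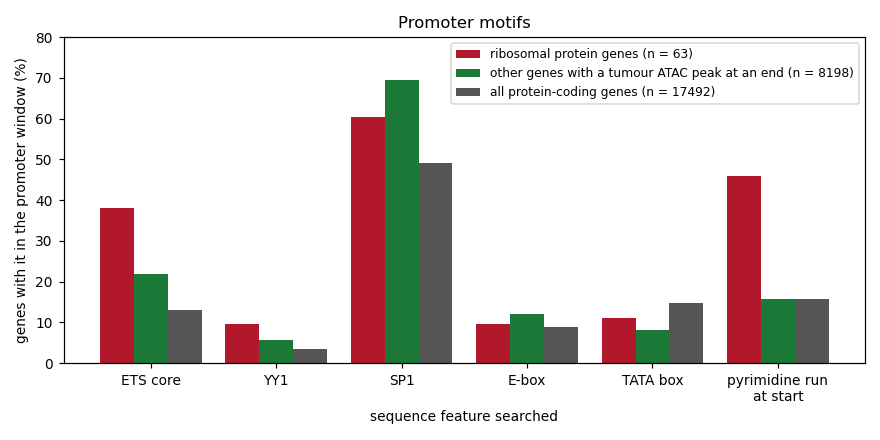
Percent of genes with each sequence feature in the promoter window (vertical axis), for 63 ribosomal protein genes, 8198 other genes with a tumour ATAC peak at an end and all 17492 genes with a listed window. The red bars stand above both others for the ETS core (38.1%) and the pyrimidine run at the start (46.0%), and between them for SP1 (60.3%).

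Nearly every standard ribosomal protein gene was open in tumour Treg. A tumour ATAC peak lay within 1 kb of a gene end at 76 of 83 members (91.6%), where the background over all protein-coding genes was 46.3%. In spleen Treg this was so at 70 members (84.3%), with a background of 35.1%. With peaks inside the gene counted too, a peak was present at 77 of 77 standard members in tumour and 70 in spleen. Strand and start were listed for 57 standard members, and a peak lay within 1 kb of a start at 57 of them in tumour and 49 in spleen, against 48.8% and 37.2% of all genes. The centre of the nearest tumour peak lay at a median of 44 bp before the start, as it did over all genes. The 2 tissues had 1 library each, so no difference between them has a replicate check.

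The members with the strongest tumour peaks came from both subunits. Peak levels are the deposited tag counts, scaled by the caller to one library total and summed over the peaks at a gene's ends. Rpl41, which encodes the smallest ribosomal protein, had 170.9 tags in tumour and 51.9 in spleen. Rps29, a zinc-binding protein of the small subunit, had 178.9 and 84.5. The large-subunit genes Rpl37 and Rpl15 had 169.6 and 135.9 tags in tumour and 67.3 each in spleen. Rpl13a, whose protein can leave the ribosome to repress translation of inflammatory mRNAs after interferon-gamma, had 156.7 and 113.3. Rpl27 followed with 125.3 and 71.4, Rps14 with 127.1 and 70.5 and Rpl27a with 104 and 39.8. Rps19, the gene most often mutated in Diamond-Blackfan anaemia, had 106.7 and 90.8. These 9 were among the 10 members with the highest summed peak scores in tumour. Each had a higher tag level in tumour than in spleen, a direction that a choice by tumour score favours. It was also the direction at 6383 of 7341 other genes with an end peak in both tissues.

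At the other end, Rpl8 had 17.3 tags in tumour and 17.2 in spleen, Rpl35a 22.1 and 14.9, and Rpl24 24.3 and 21.7. Rpl6 and Rpl23 had 19.9 and 22.6 tags in tumour and no called peak in spleen. Over the 76 members with a tumour peak the level ran from 17.3 to 178.9 with a median of 52.65, and over the 70 with a spleen peak from 14.5 to 113.3 with a median of 41.8. Within each library, peaks were ranked by score. The strongest peak of a member was at a median percentile of 74.6 in tumour, close to the 73.7 of all genes with a peak, and of 72.8 in spleen, where all genes had 64.9.

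**Figure D2:**
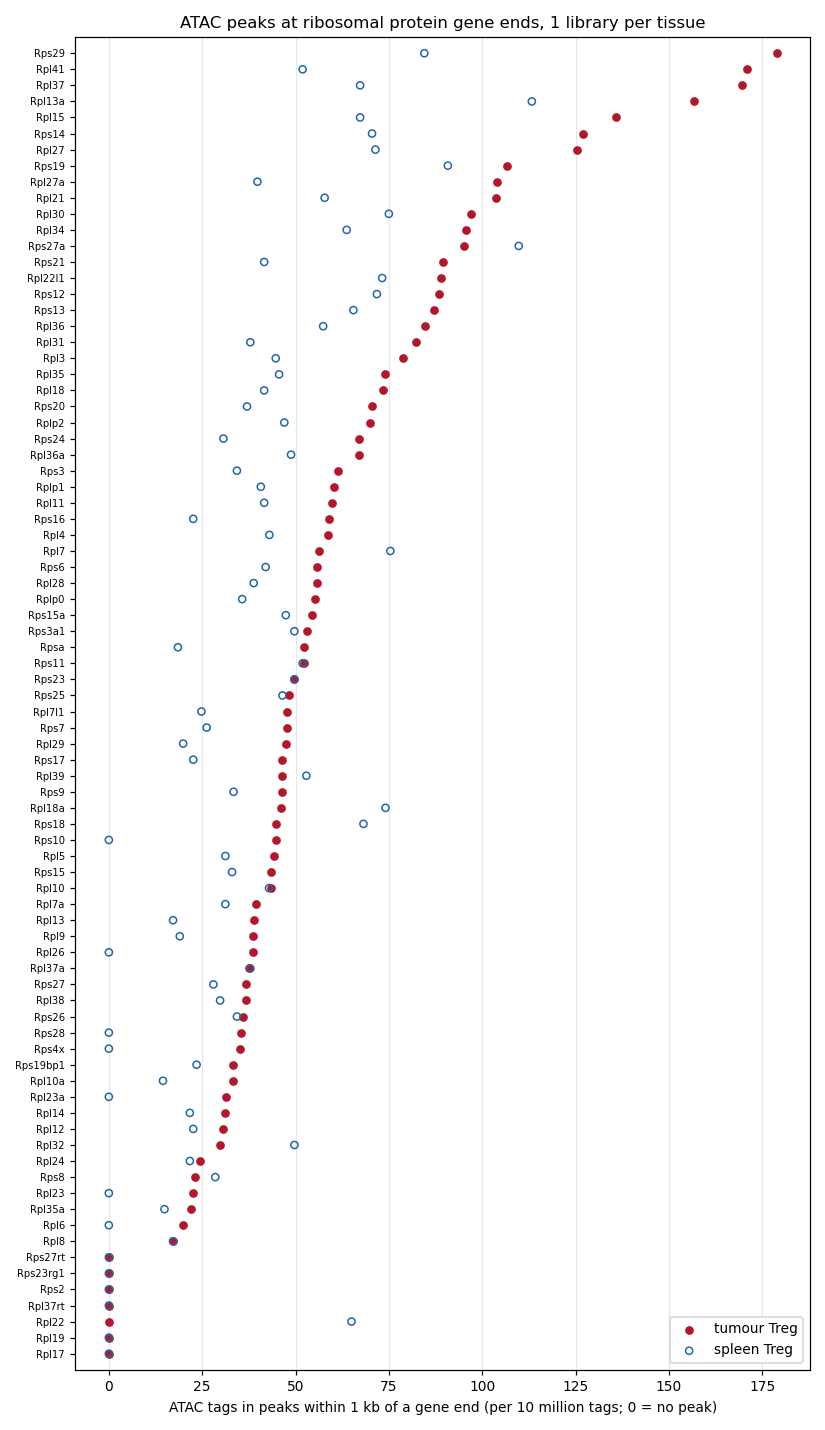
ATAC tags in peaks within 1 kb of a gene end (horizontal axis, scaled to one library total) for 82 of the 83 members (vertical axis), in the tumour (filled) and spleen (open) library. Points at 0 have no peak at an end, and tumour levels run from 17.3 (Rpl8) to 178.9 (Rps29).

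Openness of these genes was largely shared between tumour and spleen. A peak at an end was called in both tissues at 69 members, which is 90.8% of those open in tumour, while over all genes 73.1% of those open in tumour were open in spleen. Of the 85 tumour peaks at member ends, 71 touched a spleen peak (83.5%), against 64.2% at the ends of other genes and 40.3% of all tumour peaks. At 7 members the peak was called in tumour and not in spleen (background 12.5%): Rpl6, Rpl23, Rpl23a, Rpl26, Rps4x, Rps10 and Rps28. Their tumour levels lay between 19.9 (Rpl6) and 44.7 tags (Rps10), all under the member median of 52.65. With the stronger 50% of each list there were 18 such members (21.7%, against 13.5% of all genes). At 1 member, Rpl22, the end peak was called in spleen and not in tumour (background 1.25%). The tumour library had a peak at the same site, with 115.6 tags against 65 in spleen. Only the wider spleen peak reached within 1 kb of the gene end.

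The level in tumour exceeded that in spleen at 60 of the 69 members with both, with a median ratio of 1.43. The ratio ran from 0.598 at Rpl32 to 3.29 at Rpl41. Among the 7341 other genes with both peaks, tumour exceeded spleen at 6383. Their median ratio was 1.72, so the members' ratio was not above that of other open genes. The caller set the peak width at 322 bp for the tumour library and at 869 bp for the spleen library, and 11.03% of tumour tags and 4.77% of spleen tags lay in peaks. The part of these differences in the ratios was not tested. Across the 69 members, log2 levels in tumour and spleen had a Pearson r of 0.735 (Spearman rho 0.711). Across 7341 other genes these were 0.734 and 0.730. Genes share the library and its background and are not independent replicates.

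Rpl22, Rpl19, Rps2 and Rpl17 were the 4 standard members with no tumour peak at either gene end, and each had a peak inside the gene in both tissues. Rpl22, which is needed for the development of alpha-beta T cells, had a peak of 115.6 tags in tumour and 65 in spleen. The levels were 52.7 and 36.1 at Rps2, 34.1 and 25.3 at Rpl19, and 25.2 and 32.1 at Rpl17. For the first 3 of these, RefSeq lists a start inside the annotated span, and the tumour peak centre lay 86, 112 and 6 bp from the nearest one for Rpl22, Rps2 and Rpl19. These starts are shown because they, and not the outer gene ends, mark the open site: Rpl22 at chr4:152325646-152325745, plus strand, Rps2 at chr17:24719983-24720082, plus strand and Rpl19 at chr11:98026844-98026943, plus strand.
Rpl22: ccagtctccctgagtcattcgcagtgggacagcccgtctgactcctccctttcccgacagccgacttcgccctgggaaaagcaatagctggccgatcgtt
Rps2: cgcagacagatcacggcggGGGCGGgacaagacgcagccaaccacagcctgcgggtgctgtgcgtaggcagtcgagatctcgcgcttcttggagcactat
Rpl19: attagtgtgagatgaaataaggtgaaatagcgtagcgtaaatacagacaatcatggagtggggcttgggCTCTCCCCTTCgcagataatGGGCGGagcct

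The retrocopies Rpl37rt, Rps23rg1 and Rps27rt had no ATAC peak at an end or inside the gene in either tissue. A retrocopy arises when an mRNA is copied back into the genome, and so lacks the promoter of its parent. Rps27, a zinc-binding protein of the small subunit, had 36.7 tags in tumour and 28.0 in spleen. The window before its start (chr3:90213629-90213728, minus strand) holds a YY1 site and a pyrimidine run, and that of Rps27rt (chr9:114982720-114982819, minus strand) holds none of the 6 features. The longest stretch the 2 windows share is 19 bases in the transcribed part, and it runs to the end of the Rps27 window.
Rps27: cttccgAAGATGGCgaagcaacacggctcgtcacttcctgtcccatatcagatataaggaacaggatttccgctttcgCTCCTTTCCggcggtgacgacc
Rps27rt: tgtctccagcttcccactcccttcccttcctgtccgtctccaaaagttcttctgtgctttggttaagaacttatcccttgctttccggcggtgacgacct
Copies of this kind are frequent in the family, since 316 annotated pseudogenes carry the name of 63 of the members. The sources used here do not say whether reads that map to both a gene and its copies were kept, and their effect on the levels was not tested. Members were also short, with a median of 3183 bp against 17169 bp over all genes, and 30 of them held snoRNA genes (59 in all), which is 36.1% of members against 1.70% of all genes. A protein-coding neighbour lay within 1 kb of 32 members, so an end peak can belong to the neighbour.

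Other genes of the translation machinery were open to a similar degree. A tumour peak at an end was called at 34 of 34 translation factor genes, 37 of 39 ribosome biogenesis genes and 69 of 78 mitochondrial ribosomal protein genes, and a spleen peak at 31, 36 and 56. Of 15 regulators of ribosomal protein genes, such as Mtor and Larp1, 10 had a tumour and 11 a spleen peak. As a check of the labels, 2 of 7 Treg markers (Cd3e and Il2ra) had an end peak in both tissues, while Foxp3 and Ctla4 had none. An end peak was called at 0 of 4 markers of CD8 T and NK cells, 0 of 3 of B cells and 1 of 4 of myeloid cells (Spi1, in tumour). It was also called at 2 of 7 melanocyte and epithelial markers (Mitf and Pmel) and 1 of 4 stromal and endothelial markers (Col1a1), in both tissues. These lists therefore did not mark the sorted cells clearly, and the part of other cells in the members' levels was not tested.

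H3K9me2 was compared as the percent of a gene's span, with 5 kb on both sides, that lay in the peaks of a library. Depth was 24774509 to 30313851 tags in these libraries and 11068821 and 11293674 in the ATAC libraries. A single peak of median length covers 4.79% of the median member span of 13183 bp, so the value of 1 gene in 1 library mostly records 0, 1 or 2 peaks. Nothing in the labels says that replicates came from separate animals, so p-values measure only the spread between these samples, which may be technical. In the headers, cKO replicates 1 and 3 carry names with the same number, and the name prefixes of cKO and WT have 0 in common. The headers do not say what the numbers or prefixes stand for. If the prefixes mark batches, batch and genotype cannot be told apart.

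Ribosomal protein genes carried little H3K9me2 in either genotype. Their mean covered percent was 2.20, 4.13 and 2.85 in cKO replicates 1 to 3 (3.06 ± 0.983, SD, n = 3) and 1.58, 2.83 and 1.85 in WT replicates 1 to 3 (2.09 ± 0.656, SD, n = 3). The ranges of the groups overlapped, since WT replicate 2 was above cKO replicate 1. The difference of 0.974 percentage points was 0.439 without cKO replicate 2 and 0.258 with peak lists of equal length. All protein-coding genes had 4.38, 4.59 and 3.48% in cKO (4.15 ± 0.588, n = 3) and 2.60, 3.60 and 2.93% in WT (3.04 ± 0.511, n = 3). In 6 of 6 libraries the members lay below all genes, at 0.502 (cKO replicate 1) to 0.900 (cKO replicate 2) times their mean. The members are short and open, so they were also set beside 4166 other genes no longer than the longest member and with a tumour ATAC peak at an end. The median length of these genes was 7915.5 bp, against 3183 bp for the members, so length was matched only in part. The 4166 genes had 3.54 ± 0.622% in cKO and 2.25 ± 0.884% in WT (n = 3 each). The members were at 0.673 to 0.971 times their mean in 5 libraries and at 1.21 times in WT replicate 1.

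**Figure D3:**
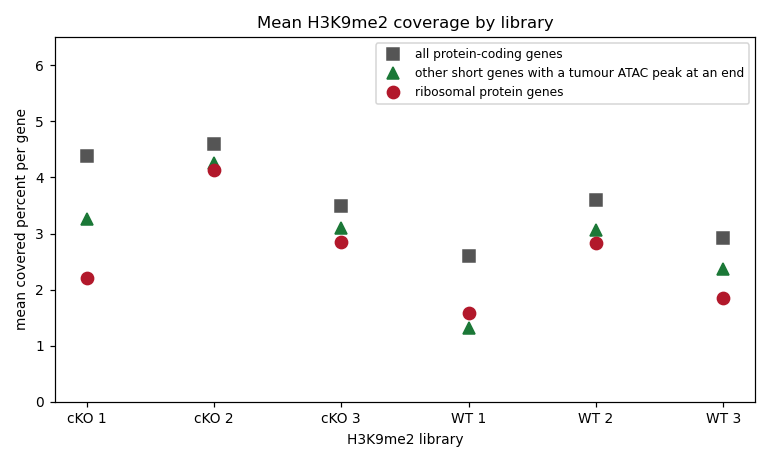
Mean H3K9me2 covered percent per gene (vertical axis) in each of the 6 libraries, for all protein-coding genes (squares), the 4166 other short genes with a tumour ATAC peak (triangles) and the 83 ribosomal protein genes (circles). The circles lie below the squares in each library and lowest relative to them in cKO replicate 1 (2.20 against 4.38%).

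Coverage of single members was sparse and differed from library to library. A peak was present in the span of 30, 52 and 43 members in cKO replicates 1 to 3 and of 29, 41 and 35 in WT. Rpl6 and Rpl10a had 0% in each of the 6 libraries, 55 members were covered in 1 to 3 libraries, 16 in 4, 8 in 5 and 2 in 6 (Rpl22l1 and Rps20). Over all genes 34.8% were covered in 6 libraries, and 8.93% of the other short open genes, against 2.41% of members. The shares at 0% in all 6 libraries were 6.66%, 2.66% and 2.41%. By library, 37.3 to 65.1% of members had 0%, against 39.2 to 63.3% of other genes no longer than the longest member. Over all genes this range was 23.4 to 45.5%. At 49 members no base was covered in more than 1 library. A base was covered in 2 or more at 34 members (41.0%) and in 3 or more at 3 members (3.61%). Among the 10713 other genes no longer than the longest member these shares were 50.8% and 19.4%. The median length of those genes was 5599 bp, against 3183 bp for the members, and the part of length in the gap was not tested. No peak lay within the gene itself in any library at 26 members, a count for which the share over other genes was not taken. The median of the member means was 2.25%, against 3.01% over all genes, and 9 members had a mean above 5%, against 25.4% of all genes.

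Rpl34 was the member with the most libraries covering one same base. Overlap in 5 or more libraries was seen at 1.20% of members and at 1.80% of other genes no longer than the longest member. Rpl34 had 3.68, 18.8 and 6.09% in cKO and 7.37, 10.5 and 0% in WT, and the groups overlapped. A peak lay within 1 kb of its start (chr3, span 130726827 to 130730398) in 5 of 6 libraries, and a base there was covered in 5. Its ATAC level was 95.6 tags in tumour and 63.7 in spleen. This large-subunit gene was thus open and had H3K9me2 peaks beside its start in most libraries. The promoter at its inner listed start (chr3:130730318-130730417, minus strand) is shown because the stretch that was covered in 5 libraries lies upstream of it.
Rpl34: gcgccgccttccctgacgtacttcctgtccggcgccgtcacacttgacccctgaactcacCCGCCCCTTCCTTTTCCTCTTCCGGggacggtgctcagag

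The retrocopy Rps27rt had the highest mean, 8.73%, with 0, 12.0 and 22.7% in cKO and 12.9, 4.82 and 0% in WT. Its peaks all lay in the flanks and none inside the gene itself, which is 374 bp long. The paralogue Rpl22l1 had 5.27, 8.39 and 6.44% and 4.196, 9.60 and 9.42%, and Rps20 5.28, 3.55 and 3.55% and 4.48, 10.4 and 3.55%. Rps27a, which encodes a small-subunit protein fused to ubiquitin, had 0, 6.32 and 9.98% in cKO and 8.20, 5.30 and 5.20% in WT. None of these 4 separated the genotypes. In Rps7, Rpl27a and Rpl39, also among the 10 highest, the top value came from 1 cKO library. Rps7 had 15.1, 3.31 and 3.31% in cKO and 3.31, 0 and 9.24% in WT. Rpl27a had 10.8, 17.9 and 0% and 0, 3.79 and 0%, and Rpl39 12.9, 4.69 and 3.94% and 3.94, 3.94 and 0%. Rps3a1 had 0, 10.2 and 9.57% in cKO and 0, 6.79 and 5.24% in WT.

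**Figure D4:**
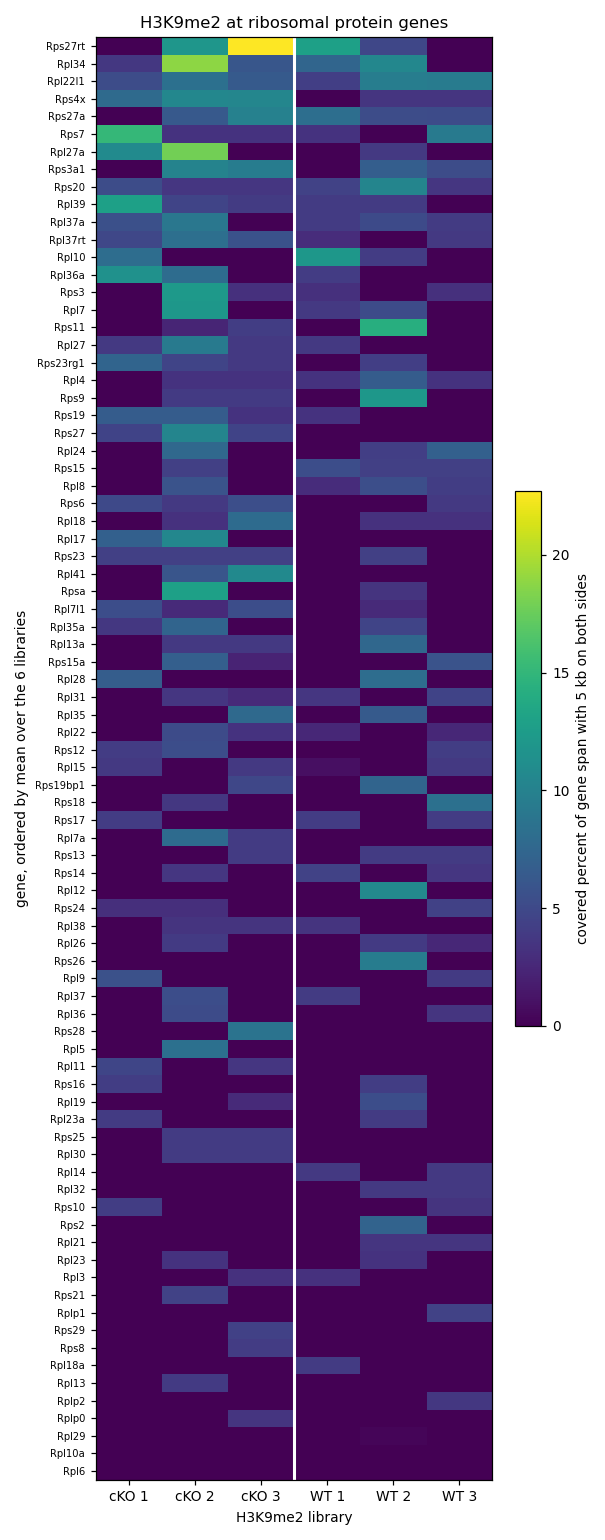
H3K9me2 covered percent (colour, 0 to 22.7%) of 82 of the 83 members (rows, by mean) in the 3 cKO and 3 WT libraries (columns). Most cells are dark (0%), and bright cells are scattered over libraries rather than forming a block on the cKO or WT side.

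Comparing cKO with WT tested whether loss of the demethylase went with more H3K9me2 at these genes. With limma fitted over 19016 genes, 72 of the 83 members had enough coverage to be tested, and 0 passed an adjusted p of 0.05 (background 0%). The lowest limma adjusted p of a member was 0.519. At an unadjusted p under 0.05, limma gave 5 members higher in cKO (background 7.43%) and 0 lower (background 0.941%). The mean was higher in cKO at 47 members (56.6%, background 65.7%), lower at 29 (background 26.2%) and equal at 7. Groups did not overlap at 3 members with higher coverage in cKO (background 11.4%) and at 0 with lower (background 1.17%). The median difference over members was 0.594 percentage points, against 1.003 over all genes. Of genes outside the list and no longer than its longest member, 55.9% were higher in cKO and 6.10% did not overlap with higher coverage in cKO. Their median difference was 0.685 percentage points. Among the 4166 of them with a tumour ATAC peak at an end, these values were 64.6%, 7.32% and 1.14 percentage points. Among the 6547 with no such peak they were 50.4%, 5.32% and 0.0606 percentage points. The members thus lay below the short open genes in all 3 values, but the median length of those genes was 7915.5 bp against 3183 bp. Against all the short genes, the members had a slightly higher share higher in cKO (56.6%). Their share without overlap (3.61%) and their median difference (0.594) were lower. The part of length was not tested. With the stronger 50% of each list, 9 members were higher in cKO, 0 lower and 74 equal (all genes 34.4% higher), and in the gene span alone 29 were higher and 25 lower (all genes 54.2% higher).

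Rps4x had the smallest limma p of the members. This gene on the X chromosome encodes a small-subunit protein (span 102184941 to 102189391) and had no spleen ATAC peak at an end. Its coverage was 7.84, 10.6 and 10.4% in cKO and 0, 3.46 and 3.46% in WT. The groups did not overlap, with 9.59 ± 1.52% and 2.31 ± 1.998% (n = 3 each, limma adjusted p = 0.519). The span held 2, 2 and 3 peaks in cKO and 0, 1 and 1 in WT. At least 1 peak lay inside the gene in each cKO library and in WT replicate 2. No base was covered in more than 2 libraries. The Rps4x promoter holds an SP1 box on each strand (chrX:102189372-102189471, minus strand).
Rps4x: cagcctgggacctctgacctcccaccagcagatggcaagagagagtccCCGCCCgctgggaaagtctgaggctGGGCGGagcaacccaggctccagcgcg

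Rps27 had 4.55, 10.4 and 4.55% in cKO and 0% in the 3 libraries of WT (limma adjusted p = 0.519). Each cKO library had 1 peak there, outside the gene and at different positions. Rps19 had 6.57, 6.57 and 3.29% in cKO and 3.29, 0 and 0% in WT, so that the groups touched (limma adjusted p = 0.568). The other members with an unadjusted limma p under 0.05 were the paralogue Rpl7l1, with 5.33, 2.67 and 5.33% in cKO and 0, 2.67 and 0% in WT, and the retrocopy Rpl37rt, with 4.81, 8.31 and 5.76% and 2.88, 0 and 3.76% (groups not overlapping). Rpl17, Rps6, Rpl41, Rps23rg1 and Rpl27 came next, each with a limma adjusted p of 0.568.

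Rps6, the substrate of S6 kinase that reports mTORC1 activity, had 4.997, 3.77 and 5.48% in cKO and 0, 0 and 3.77% in WT. Its 3 cKO peaks lay outside the gene and its WT peak inside, so the sign turned when the gene span alone was counted (-5.10 percentage points, against 3.49 with flanks). Rpl41, the member with the highest tumour ATAC score, had 0, 6.00 and 10.8% in cKO and 0% throughout WT. In the opposite direction, Rps15 had 0, 4.28 and 0% in cKO and 5.41, 4.28 and 4.28% in WT (limma adjusted p = 0.568). Rpl14 had 0% in each cKO library and 3.81, 0 and 3.81% in WT. Rpl12 and Rps26 had 10.7 and 9.57% in WT replicate 2 and 0% in the other 5 libraries.

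Members known for roles of their own showed no common direction. Rplp0, Rplp1 and Rplp2, which form the stalk that recruits elongation factors, were each covered in 1 library, at 3.51% (cKO replicate 3), 4.45% (WT replicate 3) and 3.65% (WT replicate 3). Rpl5 and Rpl11, which bind Mdm2 when ribosome assembly fails, had 0% in each WT library. In cKO, Rpl5 had 8.36% in replicate 2 and 0% in the others, and Rpl11 had 4.77, 0 and 3.56%. Rpl22 had 0, 5.16 and 3.33% in cKO and 2.54, 0 and 2.54% in WT. Rpl38, linked to translation of Hox mRNAs, had 0, 3.44 and 3.44% and 3.44, 0 and 0%. Rpsa, also known as a laminin receptor, had 12.9% in cKO replicate 2 and 3.42% in WT replicate 2. Rps14 had 3.58% in cKO replicate 2 and 4.50, 0 and 3.58% in WT.

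Coverage was low in both subunits. Large-subunit members had 2.57 ± 1.19% in cKO and 1.78 ± 0.606% in WT, and small-subunit members 3.23 ± 0.948% and 2.28 ± 0.865% (n = 3 each). Among the 4 members on the X chromosome (Rpl10, Rpl36a, Rpl39 and Rps4x) the mean was 10.1, 5.83 and 3.58% in cKO and 4.9985, 2.86 and 0.865% in WT, and among the 79 on autosomes 2.89 ± 1.13% and 2.05 ± 0.720%. In WT replicate 3 the X members were below the autosomal members (1.90%), and in the other 5 libraries above them. All X genes had a higher mean than autosomal genes, with 6.12 ± 1.25% and 5.65 ± 0.463% against 4.11 ± 0.582% and 2.96 ± 0.524% (n = 3 each).

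Position around the gene was then examined in the 63 members with a listed strand. Over the 5 kb upstream, coverage was 3.34, 6.32 and 4.43% in cKO and 1.82, 3.31 and 1.74% in WT (4.69 ± 1.51 and 2.29 ± 0.886, n = 3 each), the region with the widest gap between genotypes. The gene span had 2.78 ± 1.001% and 1.89 ± 1.20%, and the 5 kb downstream 2.395 ± 0.765% and 2.002 ± 0.509%. In the other short open genes these were 4.38 and 2.49% upstream, 2.89 and 2.09% in the span and 3.73 and 2.402% downstream. The upstream gap was therefore not limited to the members, and no test was made of it.

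The 85 tumour ATAC peaks at member ends were then taken as reference points. Within 500 bp of the peak centre H3K9me2 peaks covered 3.87 ± 1.55% in cKO and 4.15 ± 1.63% in WT, and at 4.5 to 5 kb 2.53 ± 0.840% and 1.47 ± 1.04% (n = 3 each). The bin nearest to the centre was the highest of the 10 in 4 of 6 libraries, and in cKO replicates 1 and 2 another bin was higher. Around 9482 peaks at the ends of other genes they covered 4.38 and 3.65% within 500 bp and 4.52 and 2.64% at 4.5 to 5 kb. Near the open site the members' coverage was close to that of other genes, and farther out it was lower, a difference that was not tested. An H3K9me2 peak touched 2 to 7 of the 85 ATAC peaks in a library (2.35 to 8.24%), against 4.01 to 8.37% of the peaks at the ends of other genes. Tumour ATAC level and mean H3K9me2 coverage had a Spearman rho of 0.109 across the 83 members.

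**Figure D5:**
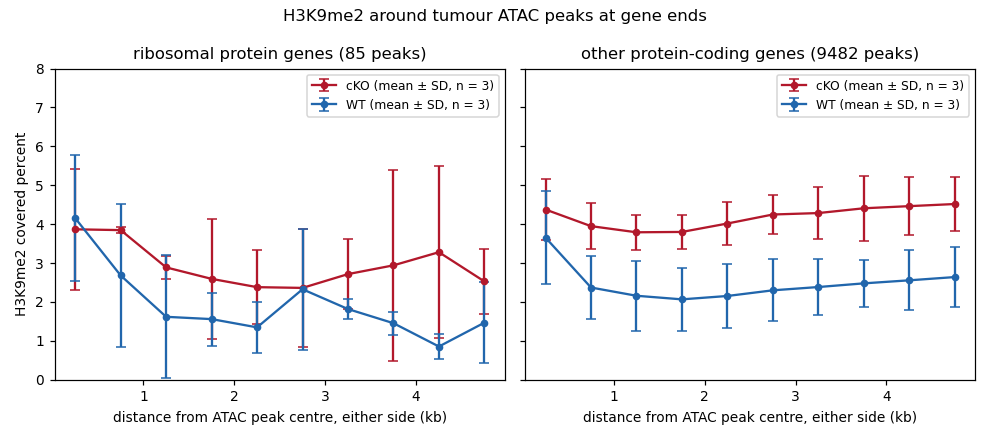
H3K9me2 covered percent (vertical axis, mean ± SD over 3 libraries) by distance from the centre of tumour ATAC peaks (kb, both sides pooled), at 85 peaks of ribosomal protein genes (left) and 9482 of other genes (right). At the members cKO and WT start at 3.87 and 4.15% and end at 2.53 and 1.47%, with overlapping error bars in each of the 10 distance bins, and the cKO mean is above the WT mean in 9 bins at the members and in 10 at other genes.

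In lists of other translation genes, too, no gene passed the test. Mitochondrial ribosomal protein genes had 3.71 ± 0.729% in cKO and 1.93 ± 0.863% in WT (n = 3 each), and 58 of 78 were higher in cKO. Translation factor genes had 3.30 ± 1.05% and 1.59 ± 0.133%, with 29 of 34 higher. Over all genes 65.7% were higher. In limma, 0 of 63 and 0 of 27 tested genes passed, and 3 in each list had an unadjusted p under 0.05 with higher coverage in cKO, as had 7.43% of all genes tested. Among them was Eif5, which triggers GTP hydrolysis at the start codon, with 8.65, 7.17 and 4.05% in cKO and 0, 2.68 and 0% in WT (limma adjusted p = 0.524). Ribosome biogenesis genes were higher in cKO at 23 of 39 and regulators at 12 of 15, with 0 of 33 and 0 of 14 passing and 1 and 2 at an unadjusted p under 0.05.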

How the data were processed

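H3K9me2 CUT&RUN (3 cKO and 3 WT tumour Treg libraries) and ATAC-seq (1 tumour and 1 spleen WT library) were analysed from the peak lists of each library. Tools named in the submitters' processing notes, with no role for each, are Bowtie2 2.4.2, deepTools, HOMER, Picard, SAMtools 1.11 and Trim Galore 0.6.6, and the build is mm10. HOMER peaks were called by the authors in each library alone, per the file headers, H3K9me2 with a size of 500 bp and a threshold of 5 tags. The tag signal is scaled to one library total, per the file headers. The deposited score, the fold over the surrounding 10 kb and its p-value are the authors' own values per peak. The deposited ATAC files also hold a focus ratio (a fraction), and the H3K9me2 files the size of each region in bp. The sources used here do not say whether ATAC reads were shifted.

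The deposited H3K9me2 lists held 24.4 to 43.9% of the peaks counted in their headers, each with a fold of 2.01 or more and a p-value of 0.0496 or less, so a filter was applied that no header states. Coverage measures local enrichment, not amount. It cannot show whether the mark as a whole differed between genotypes.

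Groups came from the sample titles. Gene spans came from a RefSeq table of GRCm38.p6, starts and strands from its promoter table, and 20 members have no listed start. Peaks on autosomes, X and Y were merged in each library and the covered percent of each span was computed. Genes whose mean coverage reached 1% were tested by limma (version 3.58.1, R 4.3.3, trend, group as the single term, Benjamini-Hochberg, threshold 0.05). The test was tried on simulated data first. ATAC values have 1 library per tissue and no test. Alternatives were the peak list, flank, scale, filter, block, gene end window and left-out libraries. Members named were the 10 highest and 5 lowest by tumour ATAC score, those with no end peak, the 10 highest by H3K9me2, the 10 with the smallest limma p, and a list with known roles or related symbols. One member and one related gene that the rule names are not reported here by name. Members, lists and rules were chosen with earlier results of these data known.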

Additional observations from a re-analysis of the deposited data

How the results depend on the processing

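The count of 0 members passing limma held under each alternative run: peak lists of equal length, the stronger 50% of each list, other flanks, scaling by genome-wide coverage, the arcsine scale, no filter, the replicate block and each library left out. On the arcsine scale 1 of all genes passed. The mean difference of the members (0.974 percentage points) ran from 0.439 without cKO replicate 2 to 1.41 without cKO replicate 1, and was 0.258 with lists of equal length, 0.340 with the stronger 50%, 0.215 in the gene span alone and 0.852 in the standard members. The number higher in cKO (47) was 39 to 53 with 1 library left out, 9 with the stronger 50% and 29 in the gene span alone. The difference at Rps6 reversed to -5.10 in the gene span alone and to -2.29 with 2 kb flanks. Members with an end peak in spleen and not in tumour (1) numbered 0 with ends of 500 bp or 2 kb, 5 with lists of equal length and 0 with peaks inside genes counted, an alternative chosen after seeing the data. Those with an end peak in tumour and not in spleen (7) numbered 18 with the stronger 50% of each list. Members with an unadjusted limma p under 0.05 were 5 of 72 tested, 0 of 41 with lists of equal length (501 of 15267 genes) and 0 of 4 with the stronger 50% (427 of 6923 genes), where few members had enough coverage to be tested. The cause of the other shifts was not tested.

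Replicate numbers were not taken to pair cKO and WT libraries. Deviations of same-numbered libraries had correlations of 0.0730, 0.00876 and 0.0274, and replicates 1 and 3 but not cKO replicate 2 correlated best with their own number. With the replicate number as a block, the mean difference was 0.974, 47 members were higher in cKO, 0 members and 0 of all genes passed, and 1484 genes had an unadjusted p under 0.05, against 1591 without it.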

Other observations

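Genes related to ribosomal proteins that the symbol rule leaves out fell into groups by their ATAC peaks. Rack1, a small-subunit scaffold, had 38.1 tags at its ends in tumour and 42.9 in spleen and 0% H3K9me2 coverage in each of the 6 libraries. Fau, which encodes a ribosomal protein fused to a ubiquitin-like protein, had 46.5 tags in tumour and 24.4 in spleen. It was covered by H3K9me2 in 1 library, at 4.32% in WT replicate 2. The copies Rpl36al and Rpl3l had 59.3 and 75.7 tags in tumour and 21.7 and 36.6 in spleen, and Rps27l had 52.9 in spleen and a tumour peak inside the gene. Rpl10l, Rpl39l, Rpl32l, Rpl34-ps1 and Rpl31-ps12 had no ATAC peak in either tissue. Their H3K9me2 means over 6 libraries were 4.50, 1.35, 5.83, 3.67 and 10.1%. Rpl32l had 18.5, 4.72 and 11.8% in cKO and 0% in the 3 libraries of WT (limma adjusted p = 0.519).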
